A study of Mus musculus with 6 samples.

Results

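The Slc25 genes encode the mitochondrial carriers, and they were followed here in mouse quadriceps with and without deletion of Fbxw7 in muscle. Members were all rows of the expression table whose symbol begins with Slc25a, apart from Slc25a11, Slc25a12, Slc25a13 and Slc25a20, which left 43 of 22564 genes. Fbxw7 encodes the substrate-binding subunit of a ubiquitin ligase. The 3 control libraries came from mice with Fbxw7 flox/flox and no Cre, and the 3 knockout libraries from MCK-Cre+/-, Fbxw7 flox/flox mice, so all 6 carry the floxed alleles. The MCK promoter drives Cre in striated muscle, so other cells of the tissue keep Fbxw7. Effects of Cre itself cannot be told apart from those of the deletion. The labels give neither age nor sex.

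A mitochondrial carrier is a small membrane protein built from 3 repeats of a similar fold, and most carriers exchange one metabolite for another across the inner mitochondrial membrane. In skeletal muscle the ADP/ATP carriers return ATP to the contracting fibre, and the phosphate carrier supplies the phosphate from which it is made. Other carriers move citrate, amino acids, cofactors, nucleotides, iron and glutathione. In the annotation the table carries, 36 of the 43 members have the inner mitochondrial membrane term, against 1.63% of all genes, and 42 have some mitochondrial term. The coding sequences were also of similar length, from 795 to 1542 bases with a median of 954, against a median of 1185 over all genes with a coding length.

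Values are FPKM, fragment numbers that the authors adjusted for transcript length and for library depth, which allow levels to be compared between genes. The control libraries held 8435731 to 11783852 estimated fragments and the knockout libraries 3150443 to 6704228, so low genes are less precise in the knockouts. Fbxw7 itself measured 6.51, 6.23 and 6.36 FPKM in the controls and 4.02, 3.86 and 3.81 in the knockouts (log2 change -0.69, limma adjusted p = 0.0028). The summed FPKM of 8 muscle fibre markers was 69781 to 72447 in the controls and 32578 to 34395 in the knockouts, with 6 lowered and 2 raised. The 10 tested lymphocyte markers were all raised, from a summed 0.792 to 1.48 FPKM to 28.0 to 29.3, with Cd79a and Ms4a1 at 0 in every control. Summed markers also went from 404 to 418 up to 454 to 519 for adipocytes (8 of 9 tested raised), from 481 to 510 up to 534 to 619 for fibroblasts (5 of 7 raised, 1 lowered), and from 74.6 to 82.9 up to 114 to 123 for Schwann cells (4 of 6 raised). They were 154 to 176 and 180 to 206 for macrophages (2 of 9 raised), 76.6 to 82.0 and 74.97 to 84.5 for endothelium (0 of 8 called by limma, 1 at an unadjusted p under 0.05), 219 to 266 and 152 to 185 for red cells (3 of 5 lowered), and 16.2 to 18.7 and 17.3 to 21.2 for proliferating cells (1 of 3 lowered). Some sums rest mostly on a single gene that was not called. Fabp4 (mean 333 FPKM in the controls and 317 in the knockouts) made up most of the adipocyte sum. The median log2 change of the tested adipocyte markers was 0.97. Dcn (353 and 405 FPKM) made up most of the fibroblast sum, and Pcna (12.6 and 15.2 FPKM) most of that of proliferating cells. The part of these cell types in the carrier results was not tested, and in bulk tissue fewer cells of a type and less RNA per cell cannot be told apart.

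Of the 43 carriers, 34 passed the filter of a mean of 0.5 FPKM and were tested. At an adjusted p under 0.05 (limma, Benjamini-Hochberg over all 11659 tested genes), 12 carriers changed, or 35.3%, against 34.6% of all tested genes. With FPKM as deposited, the share of carriers called was thus near the background. The raised carriers were 8 (23.5%, against 24.5% of all genes), namely Slc25a1, Slc25a5, Slc25a10, Slc25a23, Slc25a24, Slc25a34, Slc25a36 and Slc25a39. The lowered carriers were 4 (11.8%, against 10.1%), namely Slc25a4, Slc25a25, Slc25a27 and Slc25a30. The median log2 change was 0.17 over the tested carriers and 0.21 over all tested genes. The values of the 2 groups did not overlap for 19 of the 34 (55.9%, against 49.8% of all tested genes), which were the 12 called and Slc25a14, Slc25a15, Slc25a28, Slc25a33, Slc25a37, Slc25a42 and Slc25a46.

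These counts depend on how the libraries are scaled, since the median gene lay 0.21 higher on the log2 scale in the knockouts as deposited. With median-of-ratios scaling, with factors taken from the tested genes, that median was 0.01. Of the 34 tested carriers, 8 were then raised and 10 lowered, against 14.8% and 17.3% of all tested genes (32.1% in either direction). With quantile normalization 7 of the 34 were raised and 7 lowered, against 14.7% and 14.5% (29.3% in either direction). Under both scalings the share of carriers called was above that of all genes, a difference that was not tested. None of the 12 called carriers changed direction under any of the 17 alternatives, and 7 (Slc25a5, Slc25a23, Slc25a24, Slc25a25, Slc25a30, Slc25a34 and Slc25a39) stayed called under every one.

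**Figure D1:**
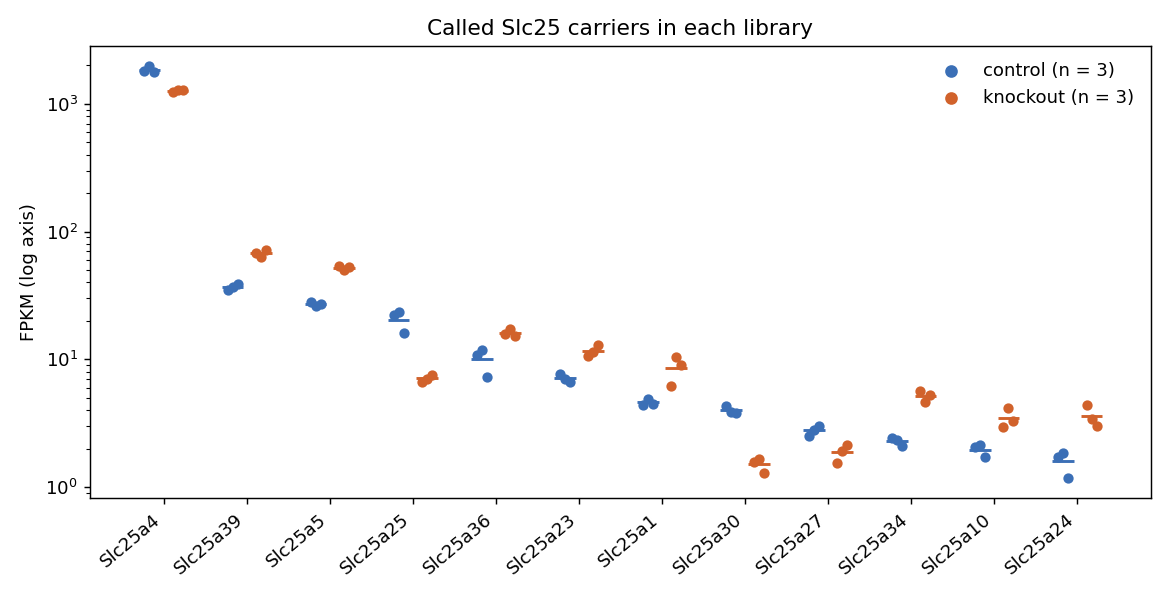
FPKM (log axis) of the 12 called carriers in each control and knockout library, 1 point per library. The 3 knockout points lie wholly above or wholly below the 3 control points for each gene, from Slc25a4 at over 1000 FPKM to carriers at 1 to 5 FPKM.

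**Figure D2:**
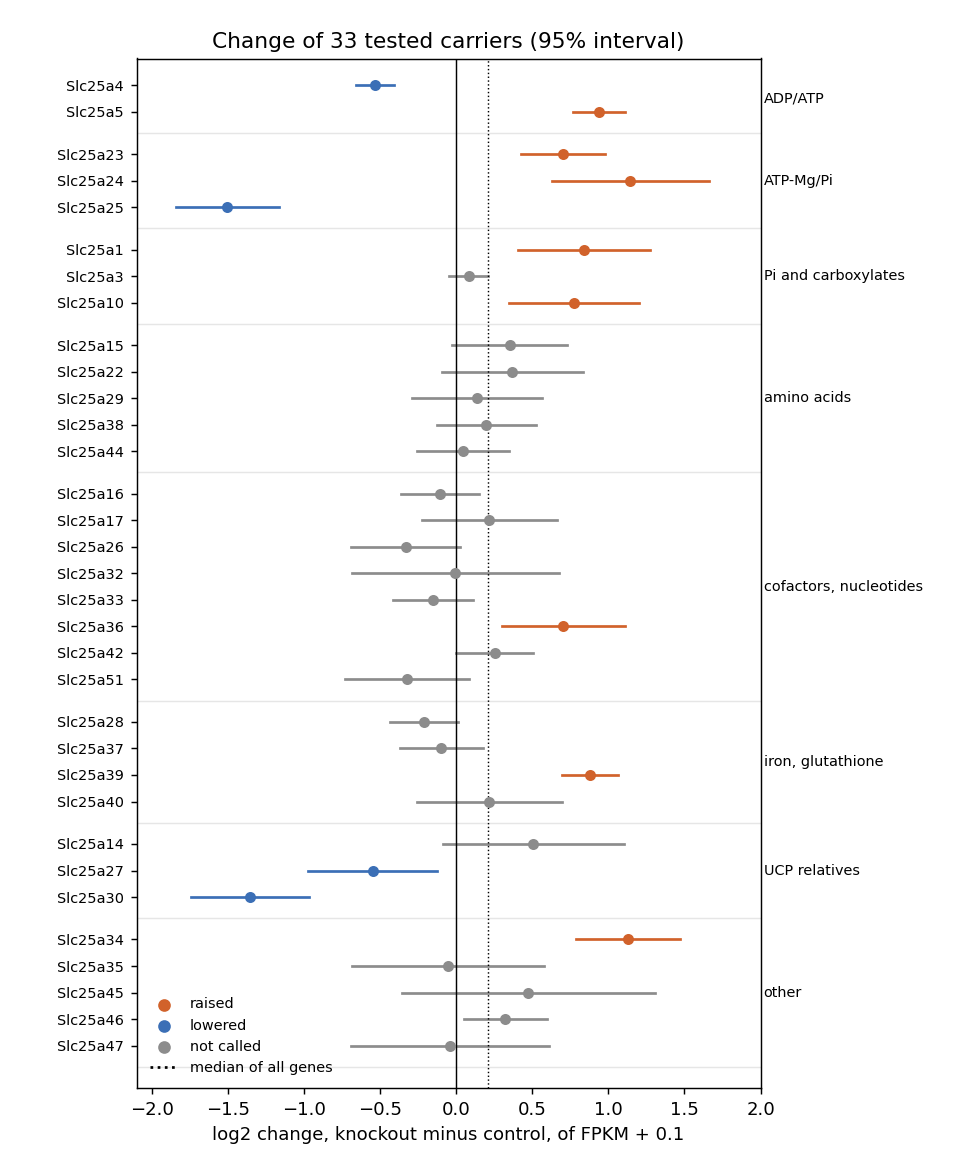
Log2 change of 33 of the 34 tested carriers, knockout minus control, on log2(FPKM + 0.1), each with its 95% interval, grouped by role. The dotted line is the median of all tested genes at 0.21, and the carriers run from -1.50 for Slc25a25 to 1.15 for Slc25a24.

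The ADP/ATP carriers moved in opposite directions. Slc25a4 (ANT1, the main form in heart and skeletal muscle; chromosome 8, 46206797 to 46211284, minus strand, mm10) measured 1793, 1958 and 1758 FPKM in the controls and 1240, 1282 and 1279 in the knockouts. Every knockout lay below every control, and the gene fell by 0.53 on the log2 scale (SE 0.06, adjusted p = 2.03e-04, limma). Quantile normalization ended that call (log2 change -0.16, adjusted p = 0.221, limma). Slc25a5 (ANT2, a form found in many tissues; chromosome X, 36795651 to 36798807, plus strand) measured 27.9, 26.2 and 27.3 FPKM in the controls and 53.8, 50.2 and 52.4 in the knockouts. The knockouts all lay above the controls, and the gene rose by 0.94 (SE 0.07, adjusted p = 4.94e-05, limma). Slc25a31 (ANT4, known from testis) was listed at 0 in all 6 libraries.

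Slc25a5 values are uncertain, because 72.3% of its transcript is matched at 95% identity or more by the processed pseudogenes Gm5529 and Gm5560, and the assignment of shared reads is not stated. No such match was found for Slc25a4. The coding sequences of Slc25a4 and Slc25a5 were identical at 77.4% of aligned bases. Their first 90 coding bases are shown (GENCODE M21, 5′ to 3′) because these close relatives moved apart, with capitals at the 24 bases that differ.
Slc25a4: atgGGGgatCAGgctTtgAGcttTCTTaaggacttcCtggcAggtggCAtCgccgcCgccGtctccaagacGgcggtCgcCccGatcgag
Slc25a5: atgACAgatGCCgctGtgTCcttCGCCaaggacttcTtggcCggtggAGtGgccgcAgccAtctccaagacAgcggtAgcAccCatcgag

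Slc25a4 was the most abundant carrier in both groups. It made up 71.7% ± 0.528 (SD, n = 3) of the summed carrier FPKM in the controls and 61.1% ± 0.698 in the knockouts, and 27 genes of the table had a higher mean in the controls and 31 in the knockouts. Slc25a5 made up 1.46% ± 0.121 of Slc25a4 plus Slc25a5 in the controls and 3.95% ± 0.195 in the knockouts. The summed carriers were 2561 ± 135 FPKM in the controls and 2074 ± 28.4 in the knockouts. As a share of all nuclear FPKM they were 0.568% ± 0.0195 and 0.614% ± 0.0112. The nuclear sum itself was lower in the knockouts, so this share rose while the summed carriers fell. From the scaled count columns, which are not per length, the direction of that share turned (0.671% and 0.640%), and the share of Slc25a5 was 0.880% and 2.42%. An exact two-sided permutation test over the 6 libraries gave p = 0.1 for Slc25a4 and for Slc25a5, the smallest that 3 against 3 allows.

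The ATP-Mg/phosphate carriers exchange ATP bound to magnesium for phosphate and adjust the adenine nucleotide content of the matrix, and Slc25a23, Slc25a24 and Slc25a25 have calcium-binding ends. Slc25a25 (SCaMC-2; chromosome 2, 32414487 to 32451445, minus strand) measured 22.01, 23.2 and 16.1 FPKM in the controls and 6.64, 7.01 and 7.57 in the knockouts. The groups were well apart, and its level was 2.89-fold lower in the knockouts (log2 change -1.50, SE 0.15, adjusted p = 1.63e-04, limma; exact permutation p = 0.1). The other tested members rose. Slc25a23 (SCaMC-3) went from 7.71, 6.995 and 6.69 to 10.6, 11.5 and 13.02 FPKM (log2 change 0.70, SE 0.12, adjusted p = 0.0030, limma). Slc25a24 (SCaMC-1) went from 1.73, 1.84 and 1.19 to 4.39, 3.43 and 3.01 FPKM (log2 change 1.15, SE 0.22, adjusted p = 0.0055, limma). In both, the lowest knockout lay above the highest control. Slc25a25 made up 69.9% ± 2.63 of the FPKM of these 3 genes in the controls and 31.6% ± 0.738 in the knockouts. Their coding sequences were identical at 64.8% to 70.3% of aligned bases. Slc25a41, the remaining member, lacks the calcium-binding end (coding length 936 bases, against 1401 to 1542 for the other members) and had 1 estimated fragment in knockout 1 and 0 in the other libraries.

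**Figure D3:**
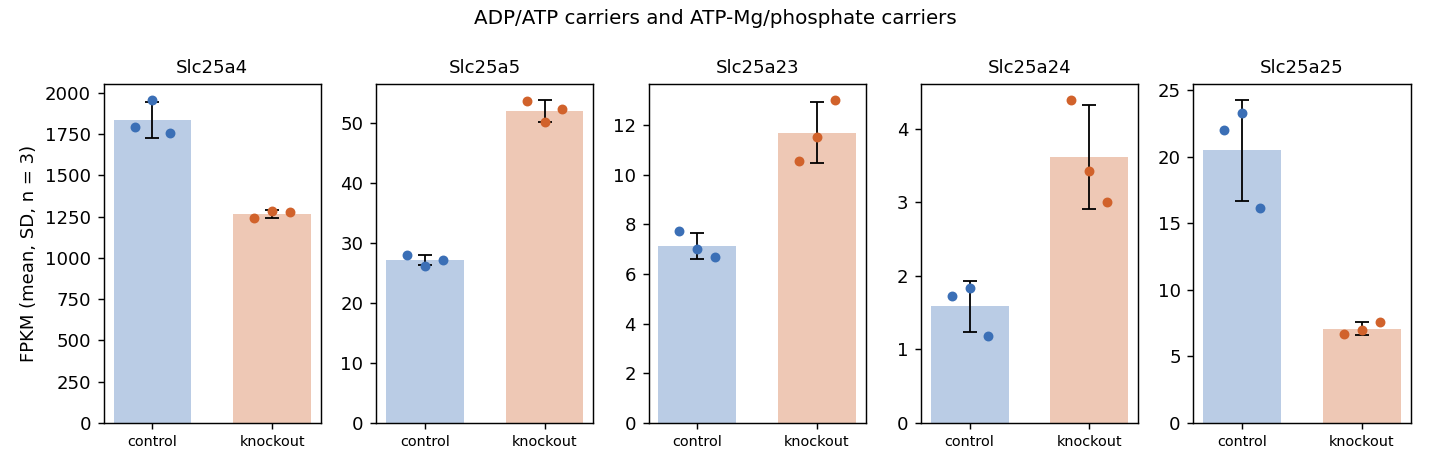
FPKM of the ADP/ATP and ATP-Mg/phosphate carriers in each library (points) with the mean and SD of 3 libraries per group, each panel on its own axis from 0. Slc25a4 and Slc25a25 were lower in every knockout, and Slc25a5, Slc25a23 and Slc25a24 higher.

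Among the carriers of phosphate and carboxylates, 2 of 3 tested members rose. Slc25a1, which exports citrate for lipid synthesis, measured 4.42, 4.92 and 4.45 FPKM in the controls and 6.16, 10.3 and 8.98 in the knockouts (log2 change 0.84, SE 0.19, adjusted p = 0.0101, limma). Slc25a10, which exchanges malate or succinate for phosphate, measured 2.04, 2.14 and 1.71 and then 2.93, 4.15 and 3.29 FPKM (0.78, SE 0.19, adjusted p = 0.0136, limma). The groups did not overlap for either, and knockout 2 was the highest library in both. Without knockout 2 the call of Slc25a10 was lost (log2 change 0.64, adjusted p = 0.0521, limma), as it was with quantile normalization (0.46, adjusted p = 0.0670).

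Slc25a3, the phosphate carrier and the carrier with the next highest level after Slc25a4, measured 440, 457 and 427 FPKM in the controls and 474, 482 and 447 in the knockouts. The groups overlapped and no difference was called (log2 change 0.08, 95% interval -0.04 to 0.21, adjusted p = 0.278, limma; exact permutation p = 0.2). With median-of-ratios scaling the sign turned (-0.12, adjusted p = 0.145, limma). Its share of the summed carriers was 17.2% ± 0.348 in the controls and 22.5% ± 0.806 in the knockouts. The summed carriers were lower in the knockouts (2561 ± 135 FPKM in the controls and 2074 ± 28.4), so the share rose without a called change in Slc25a3. The fourth member, Slc25a21, an oxodicarboxylate carrier, was listed at 0 in every library.

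Of the 5 tested amino acid carriers, 0 were called by limma, and 0 had an unadjusted p under 0.05. Slc25a15, the ornithine carrier, was at 2.84 to 3.74 FPKM in the controls and 3.79 to 4.89 in the knockouts, without overlap (log2 change 0.35, adjusted p = 0.134, limma). Slc25a22, a glutamate carrier, was called only without knockout 1 (log2 change 0.61, adjusted p = 0.0109, against 0.37 and 0.189 with all libraries, limma). Slc25a44, a branched-chain amino acid carrier, was at 6.89 to 8.92 and 7.49 to 8.70 FPKM. Slc25a29 (basic amino acids) and Slc25a38 (glycine, used for heme) also overlapped between groups. Slc25a2, Slc25a18 and Slc25a48 had at most 3 estimated fragments over all libraries.

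The cofactor, nucleotide and methyl donor carriers numbered 9, all tested, and 1 rose. Slc25a36, a pyrimidine nucleotide carrier, measured 10.9, 11.9 and 7.28 FPKM in the controls and 15.8, 17.3 and 15.1 in the knockouts (log2 change 0.70, SE 0.18, adjusted p = 0.0162, limma). Control 3 was the lowest library, and without knockout 2 the call was lost (0.65, adjusted p = 0.0552, limma). A pseudogene, Gm13217, matches 17.7% of its transcript, so its level is uncertain. Its relative Slc25a33, identical to it at 66.2% of aligned coding bases, measured 5.83, 6.09 and 6.29 and then 5.22, 5.67 and 5.50 FPKM, not called as deposited (log2 change -0.15, adjusted p = 0.342) but lowered with median-of-ratios scaling (-0.35, adjusted p = 0.0420) and quantile normalization (-0.40, adjusted p = 0.0274, all limma). A gene on the opposite strand, Gm13068, overlaps 14.9% of the exon bases of Slc25a33, and whether strand was used in counting is not stated.

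Slc25a51, the NAD carrier, was at 27.8, 33.1 and 19.9 and then 23.1, 21.8 and 18.6 FPKM (-0.32, adjusted p = 0.191, limma). Control 3 was the lowest control, and without it Slc25a51 was called (-0.52, adjusted p = 0.0273, limma). It was also called with median-of-ratios scaling (-0.53, adjusted p = 0.0387) and from the scaled count columns (-0.37, adjusted p = 0.0403, both limma). Slc25a26, which imports S-adenosylmethionine, was at 6.95 to 9.06 and 5.28 to 7.20 FPKM (-0.33, adjusted p = 0.132), and was lowered with median-of-ratios scaling (-0.53, adjusted p = 0.0386) and quantile normalization (-0.55, adjusted p = 0.0354, all limma). Slc25a16 was not called as deposited but was lowered with both scalings (-0.31 and -0.30, adjusted p = 0.0366 and 0.0407, limma). Slc25a17 (peroxisomal), Slc25a32 (folate or FAD) and Slc25a42 (coenzyme A) were not called as deposited.

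Among the iron and glutathione carriers, 1 of 4 rose. Slc25a39, which takes glutathione into mitochondria (chromosome 11, 102402985 to 102407946, minus strand), measured 34.8, 36.9 and 38.7 FPKM in the controls and 68.4, 63.6 and 71.3 in the knockouts (log2 change 0.88, SE 0.08, adjusted p = 1.00e-04, limma). The groups were far apart, and it was the carrier with the third highest level in both. Its relative Slc25a40, identical at 62.0% of aligned coding bases, was at 1.503, 1.11 and 1.58 and then 1.62, 1.54 and 1.71 FPKM, overlapping and not called (0.22, adjusted p = 0.444, limma), and a pseudogene, Gm5066, matches 25.9% of its transcript.

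The mitoferrins import iron. Slc25a28 (mitoferrin-2) measured 22.3, 21.5 and 21.02 FPKM in the controls and 20.7, 17.1 and 18.2 in the knockouts, without overlap but not called (log2 change -0.21, adjusted p = 0.124, limma). It was called without knockout 1 (-0.29, adjusted p = 0.0426) and with median-of-ratios scaling (-0.42, adjusted p = 0.0189, both limma). Slc25a37 (mitoferrin-1, known from red cell precursors) measured 6.35, 6.53 and 6.34 and then 5.42, 6.25 and 6.32 FPKM (-0.10, adjusted p = 0.557, limma), and was lowered with quantile normalization (-0.34, adjusted p = 0.0430, limma). Gm16867, a protein-coding gene, matches 9.15% of its transcript.

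Of the 3 relatives of the uncoupling proteins, 2 fell. Slc25a30 (KMCP1, known from kidney; chromosome 14, 75760117 to 75787037, minus strand) measured 4.35, 3.84 and 3.77 FPKM in the controls and 1.57, 1.65 and 1.29 in the knockouts. It was 2.65-fold lower (log2 change -1.35, SE 0.17, adjusted p = 5.97e-04, limma), and the knockout values rest on 10, 26 and 16 estimated fragments. Slc25a27 (UCP4, known from brain) measured 2.53, 2.78 and 3.0004 and then 1.54, 1.93 and 2.15 FPKM (-0.55, SE 0.19, adjusted p = 0.0489, limma). The groups did not overlap, but leaving out any of the 6 libraries ended this call, with log2 changes from -0.65 to -0.42 and adjusted p from 0.0510 to 0.126 (limma). Slc25a14 (UCP5) was at 1.16 to 1.37 and 1.38 to 2.64 FPKM and was not called (0.51, adjusted p = 0.162, limma). Knockout 3 was its highest library, and the log2 change was 0.25 without it and 0.16 with quantile normalization.

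Among the 8 carriers of little-known or unassigned substrate, 5 were tested and 1 rose. Slc25a34 (chromosome 4, 141618824 to 141623821, minus strand) measured 2.44, 2.33 and 2.11 FPKM in the controls and 5.63, 4.59 and 5.22 in the knockouts (log2 change 1.13, SE 0.15, adjusted p = 7.80e-04, limma). The lowest knockout was well above the highest control. Slc25a46, an outer membrane protein that shapes mitochondria, was at 8.91 to 11.3 and 12.4 to 13.3 FPKM, without overlap and not called (0.32, adjusted p = 0.0665, limma). Slc25a35 was at 3.74 to 4.31 and 2.35 to 5.26 FPKM. Rangrf, on the opposite strand, overlaps 31.3% of its exon bases and itself measured 53.6 ± 5.18 and 39.0 ± 4.36 FPKM (SD, n = 3), so the level of Slc25a35 is uncertain. Slc25a45 was at 0.736 to 1.12 and 0.799 to 2.28 FPKM and Slc25a47 (known from liver) at 1.22 to 1.56 and 0.857 to 1.80 FPKM, both overlapping. Slc25a45 was not called as deposited (log2 change 0.48, adjusted p = 0.341) but was raised from the scaled count columns (0.78, adjusted p = 0.0460, both limma). With 1 library left out, its log2 change was lowest without knockout 2, at 0.13, and highest without knockout 1, at 0.84. Slc25a53 was under the filter at 0.200 to 0.777 FPKM, Slc25a43 had 1 estimated fragment in all, and Slc25a54 was listed at 0.

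Over the 22 tested carriers that were not called, log2 changes ran from -0.33 to 0.51 and adjusted p from 0.0665 to 0.991 (limma). For 20 of them the 95% interval lay within 1 log2 unit of no change in either direction, which bounds but does not exclude smaller differences.

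**Figure D4:**
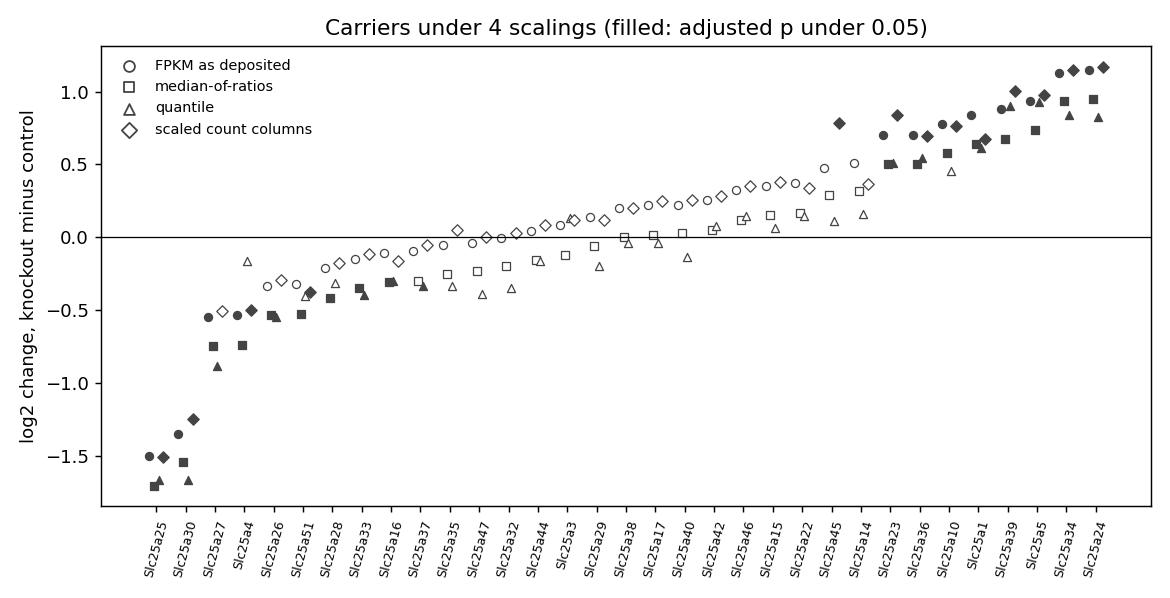
Log2 change of 33 of the 34 tested carriers, knockout minus control, as deposited and under 3 other scalings, with filled symbols where adjusted p is under 0.05. Slc25a4 is filled as deposited (-0.53) and open under quantile normalization (-0.16), while Slc25a25 is filled under all 4.

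RefSeq promoter windows on GRCm38.p6, from 250 bases before to 50 after a gene's RefSeq start, were matched for 32 carriers (42 windows). For some genes these starts differ from the GENCODE positions given above. Most of the Slc25a4 window lies inside the gene as placed above, and the Slc25a5 window ends before the start given above. AAGGTCA, a short element bound by estrogen-related receptors, was found on either strand in 1 carrier window, that of Slc25a34, and in 4.72% of all 32851 windows. CACGTG, an E-box that reads the same on both strands, was found in 7 of the 42 carrier windows and in 7.15% of all windows. The 7 windows belong to 6 carriers (Slc25a1, Slc25a14, Slc25a15, Slc25a31, Slc25a33 and Slc25a36). The Slc25a14 windows that hold it overlap and share the same site, so that site is counted more than once. A match describes letters and is not evidence of binding. The windows of the ADP/ATP carriers that moved apart and of the 3 raised carriers that hold a motif are given 5′ to 3′ on the gene's strand, with the motif in capitals where there is one. They lie at chr8:46211013-46211312 (Slc25a4, minus strand), chrX:36795347-36795646 (Slc25a5, plus), chr4:141623785-141624084 (Slc25a34, minus), chr16:17928170-17928469 (Slc25a1, minus) and chr9:97110992-97111291 (Slc25a36, minus).
Slc25a4: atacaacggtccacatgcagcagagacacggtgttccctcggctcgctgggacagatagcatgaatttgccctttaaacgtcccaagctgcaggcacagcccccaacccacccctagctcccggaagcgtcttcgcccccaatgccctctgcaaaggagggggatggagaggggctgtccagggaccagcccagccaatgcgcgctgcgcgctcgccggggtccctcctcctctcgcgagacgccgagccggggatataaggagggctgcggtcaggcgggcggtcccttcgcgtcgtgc
Slc25a5: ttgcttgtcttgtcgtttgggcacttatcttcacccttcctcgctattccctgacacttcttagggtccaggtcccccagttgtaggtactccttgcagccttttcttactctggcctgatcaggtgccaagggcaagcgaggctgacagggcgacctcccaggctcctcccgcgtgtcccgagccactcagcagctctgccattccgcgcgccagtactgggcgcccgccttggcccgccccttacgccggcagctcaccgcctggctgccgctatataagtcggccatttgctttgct
Slc25a34: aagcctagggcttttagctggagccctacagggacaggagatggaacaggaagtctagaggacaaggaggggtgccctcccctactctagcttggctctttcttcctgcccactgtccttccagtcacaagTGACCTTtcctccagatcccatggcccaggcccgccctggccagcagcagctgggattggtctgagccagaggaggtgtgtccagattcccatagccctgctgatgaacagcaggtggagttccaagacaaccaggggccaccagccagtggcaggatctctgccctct
Slc25a1: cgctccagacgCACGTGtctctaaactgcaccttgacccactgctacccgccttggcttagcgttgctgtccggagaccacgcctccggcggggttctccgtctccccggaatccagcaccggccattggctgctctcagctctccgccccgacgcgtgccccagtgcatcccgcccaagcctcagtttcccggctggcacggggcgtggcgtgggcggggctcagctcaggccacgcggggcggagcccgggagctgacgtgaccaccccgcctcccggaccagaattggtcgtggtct
Slc25a36: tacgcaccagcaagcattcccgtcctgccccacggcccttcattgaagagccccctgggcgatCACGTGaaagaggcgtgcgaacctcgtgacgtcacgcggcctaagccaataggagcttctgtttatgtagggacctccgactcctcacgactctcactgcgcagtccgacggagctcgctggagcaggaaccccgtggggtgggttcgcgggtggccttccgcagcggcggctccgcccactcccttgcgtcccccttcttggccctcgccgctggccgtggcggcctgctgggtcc

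Other genes of mitochondrial transport and of the carriers' substrates were read from the same fit, in which 24.5% of all tested genes rose and 10.1% fell. Of the 5 family genes with other symbols, Ucp2 (7.47 ± 1.10 to 23.5 ± 4.98 FPKM) and Mtch1 rose, Ucp3 fell (adjusted p = 0.0358, limma, a call lost when any library but control 3 was left out), Mtch2 was not called and Ucp1 was not tested. Of 27 other transporters of mitochondrial membranes, 5 rose (18.5%), among them Micu2, a regulator of the calcium uniporter, and 2 fell (7.4%), among them Vdac3, an outer membrane channel, with a median log2 change of 0.15. Of 20 genes used as measures of mitochondrial content, 5 rose and 3 fell (25% and 15%, median 0.01). A nucleotide list set beside the ADP/ATP carriers held genes that use or make adenine nucleotides, and also Atpif1, Ppif and the Vdac channels. Ppif and the Vdac channels were also among the 27 other transporters. Of the 18 tested genes of the nucleotide list, 6 rose and 5 fell (33.3% and 27.8%, median 0.03). Ckm, cytosolic creatine kinase, fell by 1.42 on the log2 scale and Ckmt2, the mitochondrial form, rose by 0.54. Of 25 tested amino acid enzymes, 7 rose and 4 fell (28% and 16%, median 0.05).

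Of 18 tested genes of S-adenosylmethionine supply and use, beside Slc25a26, 5 rose and 2 fell (27.8% and 11.1%, median 0.15). The latter were Amd1, which decarboxylates it for polyamine synthesis (634 ± 26.8 to 36.9 ± 2.65 FPKM), and Mat2a, which makes it (79.4 ± 3.66 to 35.2 ± 2.89 FPKM). Of 26 tested iron, iron-sulfur and heme genes, 6 rose and 4 fell (23.1% and 15.4%, median 0.08), with Tfrc, the transferrin receptor, falling from 29.8 ± 1.11 to 12.9 ± 0.795 FPKM. These list counts changed with scaling and with single libraries. With median-of-ratios scaling the content list had 1 of 20 raised and 11 lowered, against 14.8% and 17.3% of all tested genes.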

How the data were processed

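Stranded total RNA libraries, 3 control and 3 knockout, were made from quadriceps RNA after ribosomal RNA removal, per the labels' protocols. Per the submitters' processing notes, the authors used cutadapt 1.9.3, HISAT2 2.0.4, Cufflinks and Cuffdiff on build mm10 (the sources used here give no version for the last 2). FPKM per library, the unit analysed, were deposited by the authors. The deposited columns headed as counts are a scaled signal: 92.6% to 94.2% of values were whole multiples of 1 step per library within a tolerance of 0.1, so no count test was run and they gave only estimated fragments and an alternative.

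Rows sharing a symbol were summed (79 of 22481 symbols). Tested genes had a mean over libraries of 0.5 FPKM or more and were compared on log2(FPKM + 0.1), which understates changes of low genes, by limma 3.58.1 under R 4.3.3 (moderated variances, mean-variance trend, Benjamini-Hochberg over 11659 genes, threshold 0.05, two-sided). The labels do not say that each library is a separate animal, so the spread behind each p-value may be technical. The fit was also run on simulated data with independent noise and no difference in depth or scaling between groups. That run cannot show how such differences affect the results here. Single carriers were also compared by exact permutation, and intervals are 95%.

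The carriers, role groups and lists were chosen with earlier results of these data known. Carriers named with values are those called, those with a group mean of at least 20 FPKM and close relatives, with others given by range, and list genes were among the 4 with the smallest p. Values of further carriers were added after they were seen, and some genes that the rule picks are left out of the text and plots. Coding identity and length were computed from GENCODE M21 in place of protein comparisons, which were not run, and were chosen after the files were seen, as was taking median-of-ratios factors from tested genes. Near-identical transcripts were found with blastn 2.17.0 (at least 95% identity over 200 bases). Alternatives were other pseudocounts (0.01, 1), filters (none, 2 FPKM, no gene at 0), scalings, no trend, a replicate block, a threshold of 0.01 and each library left out.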

Additional observations from a re-analysis of the deposited data

How the results depend on the processing

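Of the 12 called carriers, 7 stayed called in the same direction under all 17 alternatives. At a threshold of 0.01, 5 carriers were raised, and 1460 of all genes were raised and 708 lowered. Median-of-ratios scaling gave 10 lowered carriers, and 1724 genes raised and 2018 lowered. Quantile normalization gave 7 lowered carriers and 1715 genes raised, against 2860 raised and 1177 lowered as deposited. Slc25a5 as a share of Slc25a4 plus Slc25a5 was 1.72% and 3.595% (control, knockout) after quantile normalization and 0.880% and 2.42% from the scaled count columns, which are not per length and put the summed carriers at 0.671% and 0.640%, below rather than above the controls. Slc25a27 lost its call in 11 of 17 alternatives.

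Log2 changes turned in sign for 9 carriers, none of them called as deposited. With median-of-ratios scaling these were Slc25a3 (-0.12), Slc25a29 (-0.059), Slc25a38 (-0.0014) and Slc25a44 (-0.16), with quantile normalization Slc25a17 (-0.040), Slc25a29 (-0.20), Slc25a38 (-0.040), Slc25a40 (-0.13) and Slc25a44 (-0.16), and with the scaled count columns Slc25a32 (0.026), Slc25a35 (0.049) and Slc25a47 (0.0023). With each library left out in turn, the log2 change ranged from -0.017 to 0.23 for Slc25a29, -0.31 to 0.17 for Slc25a32, -0.26 to 0.30 for Slc25a35, -0.055 to 0.13 for Slc25a44 and -0.25 to 0.25 for Slc25a47. The cause was not tested.

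List counts that rose or fell by a factor of more than 1.5 from their value as deposited are given here. As deposited there were 1 other family genes lowered, 2 other transporters lowered, 5 content genes raised and 3 content genes lowered. There were also 5 nucleotide genes lowered, 7 amino acid enzymes raised and 4 lowered, and 5 S-adenosylmethionine genes raised. The iron and heme genes were 6 raised and 4 lowered. With median-of-ratios scaling there were 2 other family genes lowered, 8 other transporters lowered, 1 content genes raised, 11 content genes lowered, 8 nucleotide genes lowered, 1 S-adenosylmethionine genes raised and 1 iron and heme genes raised. Over all tested genes, 14.8% were raised and 17.3% lowered with this scaling, against 24.5% and 10.1% as deposited. With quantile normalization there were 4 other transporters lowered, 2 S-adenosylmethionine genes raised and 3 iron and heme genes raised. The shares of all tested genes were then 14.7% raised and 14.5% lowered. With no filter there were 0 other family genes lowered, 2 content genes raised and 2 S-adenosylmethionine genes raised. Over all genes, 2733 were then raised and 1093 lowered, against 2860 and 1177 as deposited. Without the limma trend there were 0 other family genes lowered, 1 content genes raised and 1 content genes lowered, with 2709 of all genes raised and 968 lowered. From the scaled count columns there were 0 other family genes lowered, 2 content genes raised, 1 content genes lowered and 2 iron and heme genes lowered. These columns gave 3176 of all genes raised and 989 lowered. At the threshold of 0.01 there were 0 other family genes lowered, 1 content genes raised, 1 content genes lowered, 4 amino acid enzymes raised, 2 amino acid enzymes lowered, 1 S-adenosylmethionine genes raised and 1 iron and heme genes raised. That threshold left 1460 of all genes raised and 708 lowered. With each library left out in turn there were 0 to 1 other family genes lowered, 1 to 5 content genes raised, 1 to 3 content genes lowered, 4 to 7 amino acid enzymes raised, 2 to 4 amino acid enzymes lowered, 1 to 5 S-adenosylmethionine genes raised and 1 to 6 iron and heme genes raised. Over all genes, 2029 to 2786 were then raised and 817 to 1090 lowered.

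The replicate numbers were not treated as pairs. Deviations of same-numbered libraries correlated at -0.07, 0.20 and 0.18, and those of differently numbered libraries at -0.29 to 0.18. So few values cannot decide whether the libraries were paired. With a replicate block, 8 carriers were raised and 3 lowered (Slc25a27 was lost, adjusted p = 0.0573, limma), and 2655 genes were raised and 1173 lowered. Depth limits the low carriers most: knockout 1, with 3150443 estimated fragments, had 10 for Slc25a30.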
